A study of Rattus norvegicus with 16 samples.

Results

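The p53 target genes Cdkn1a, Mdm2, Ccng1, Bax, Gadd45a, Btg2, Fas, Bbc3, Sesn1 and Phlda3 were followed in cultured rat hepatocytes exposed to SQ1 or to pravastatin. These 10 genes were taken by name as textbook targets of p53, and their probes were found by the RefSeq accession given for each spot. The choice was made with earlier results of these data known, so the set itself was not tested. A probe was found for 9 of the 10 genes, and these 9 were tested among 20753 genes in all. No probe matched Sesn1 by accession, so that gene has no expression value here. Primary hepatocytes came from male Sprague Dawley rats and were kept in Williams Medium E. From 48 h after plating they received 100 µM SQ1, 30 µM pravastatin or nothing, for 48 h. Each of 16 Agilent 2-colour arrays carried RNA from 1 treated and 1 untreated culture, with 8 arrays per drug and 4 arrays in each dye orientation. The design text calls the replicates biological, without saying how many animals they came from. Pravastatin, a statin, inhibits HMG-CoA reductase. SQ1 is a code name whose compound the labels do not spell out. It was taken here to be squalestatin 1, which inhibits squalene synthase, a later step of the same sterol pathway, and no result rests on that reading. The doses differed. Same-numbered arrays of the drugs carry the same control number in their scanner files, so the comparisons with untreated cells may share controls, which no label states. The main model did not pair the arrays.

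The transcription factor p53 is held at a low level by Mdm2, a ubiquitin ligase that is itself a p53 target and so closes a feedback loop. When p53 accumulates after DNA damage or other stress, it raises genes that halt the cell cycle, such as Cdkn1a, and genes that promote apoptosis, such as Bax and Bbc3. Many of these genes also answer to regulators other than p53, and Gadd45a, for example, responds to nutrient stress and to stress in the endoplasmic reticulum.

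Promoter windows of 8 of the 10 genes were searched for the sequence that p53 binds, and 4 of them are printed. Promoter windows from RefSeq, build GRCr8, held 250 bases before and 50 after each annotated start, and 8 of the 10 genes had an entry. Only the 250 bases before the start were searched. A p53 half-site was present on either strand in 4 of these 8 windows (Ccng1, Cdkn1a, Gadd45a and Sesn1), against 6.64% of all 33469 windows. A pair of half-sites with at most 1 mismatch and a spacer of at most 13 bases was present in 3 of 8 windows, against 0.801% of all windows. A pair without mismatch was present in 0 of 8 windows and in 0.0388% of all windows. Those 3 promoters, and that of Phlda3, where neither was found, are printed 5′ to 3′ on the strand of the gene, with the half-sites of the pair in capitals. The sequence for Cdkn1a is chr20:7150682-7150819 (plus strand), for Ccng1 chr10:25684877-25685126 (minus strand), for Gadd45a chr4:97486800-97487049 (minus strand) and for Phlda3 chr13:49744753-49745002 (plus strand).
Cdkn1a: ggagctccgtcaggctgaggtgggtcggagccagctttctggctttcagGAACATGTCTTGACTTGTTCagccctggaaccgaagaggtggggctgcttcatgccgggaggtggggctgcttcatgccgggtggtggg
Ccng1: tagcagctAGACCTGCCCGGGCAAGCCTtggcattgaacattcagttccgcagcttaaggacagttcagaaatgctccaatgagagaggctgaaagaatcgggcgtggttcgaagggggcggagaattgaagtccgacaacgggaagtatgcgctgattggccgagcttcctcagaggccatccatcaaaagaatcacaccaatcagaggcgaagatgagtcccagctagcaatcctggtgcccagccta
Gadd45a: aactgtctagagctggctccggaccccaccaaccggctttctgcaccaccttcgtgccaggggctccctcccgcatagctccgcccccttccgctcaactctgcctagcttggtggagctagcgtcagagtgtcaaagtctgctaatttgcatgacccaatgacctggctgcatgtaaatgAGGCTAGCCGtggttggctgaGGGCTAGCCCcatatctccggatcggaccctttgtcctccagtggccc
Phlda3: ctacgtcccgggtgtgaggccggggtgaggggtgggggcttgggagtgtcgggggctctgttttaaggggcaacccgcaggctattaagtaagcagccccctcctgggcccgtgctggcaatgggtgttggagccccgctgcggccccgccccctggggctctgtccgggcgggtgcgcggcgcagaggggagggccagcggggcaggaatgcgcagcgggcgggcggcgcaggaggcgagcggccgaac
Counted from the start used by the table, the paired site lay at −201 to −182 in Cdkn1a with a spacer of 0, at −242 to −223 in Ccng1 with a spacer of 0, and at −69 to −39 in Gadd45a with a spacer of 11 bases. For Cdkn1a, 138 of the 250 upstream bases are printed because the other 112 lie inside the annotated gene. For Mdm2 and Sesn1 all 250 lie inside the annotated gene. The Sesn1 half-site and the lack of one in Mdm2 thus concern bases within the gene. Of other short motifs searched on both strands, CCAAT was in 5 of 8 member windows (34.0% of all windows), GGGCGG in 7 of 8 (30.5%) and TATAAA in 0 of 8 (12.9%). A match describes letters in a window and is not evidence of binding. Bases outside the 250 were not searched, so a window without a match does not show that the gene lacks a site.

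Probes for the 9 genes were all detected, though not all were bright. All 12 probes were well above background in both channels of each of the 16 arrays, and no spot of any array was saturated. The dimmer Fas probe had untreated signals of 506.5 to 734 on SQ1 arrays and 475 to 740.5 on pravastatin arrays. Median signals of the arrays were 588 to 663 in A555 and 790 to 1076 in A647. Over the whole array, 71.3% to 86.2% of spots were well above background in the A555 channel and 72.4% to 85.2% in the A647 channel. Values below are log2 of treated over untreated signal, and each fold change is the estimate of a limma model over all 16 arrays with its SE (n = 8 arrays per drug), a two-sided test and a Benjamini-Hochberg adjusted p over all genes. A gene was called at an adjusted p under 0.05. The p-values measure the spread between these arrays. The deposited value table carries the drug names the other way round: each of its columns matched the same-numbered scanner file of the other drug. Drug names here follow the labels of the scanner files, and every statement that names a drug rests on them.

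With SQ1, 8 of the 9 genes rose and 1, Cdkn1a, fell. Over all genes 63.8% were called in this comparison, 32.6% upwards and 31.2% downwards. On the arrays themselves, 7 of the 9 genes were above 0 on all 8 SQ1 arrays, against 21.5% of all genes, and 1 was below 0 on all 8, against 20.7%. The median change of the 9 genes was 0.41, against 0.01 over all genes tested. With pravastatin, 3 genes rose (Gadd45a, Bax and Bbc3), 2 fell by small amounts (Btg2 and Cdkn1a) and 4 were not called, against 38.9% of all genes called, 19.3% upwards and 19.6% downwards. The median of the 9 genes with pravastatin was 0.01, against 0.00 over all genes. In SQ1 minus pravastatin, 7 of the 9 genes were higher with SQ1 and Cdkn1a was lower, against 37.9% of all genes called, 18.4% upwards and 19.5% downwards.

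**Figure D1:**
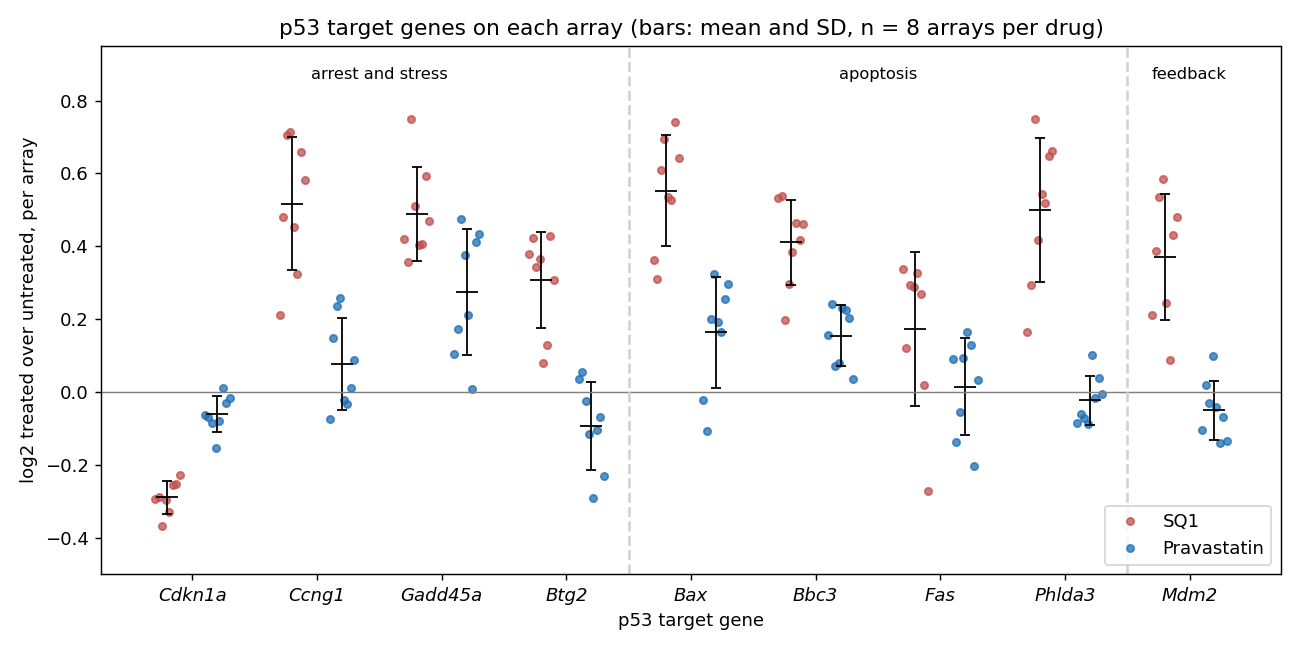
Log2 of treated over untreated signal on each array for the 9 measured p53 target genes (vertical axis), with SQ1 in red and pravastatin in blue; bars give the mean and SD of 8 arrays per drug. With SQ1, 7 genes lie above 0 on all 8 arrays and Cdkn1a lies below 0 on all 8, while the pravastatin points lie closer to 0.

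Mdm2, the feedback ligase, rose with SQ1. Its SQ1 arrays ran from 0.09 through a median of 0.41 to 0.59, all 8 above 0. The pravastatin arrays ran from −0.14 through −0.05 to 0.10, on both sides of 0. The fold change was 0.37 ± 0.04 with SQ1 (adjusted p = 4.36e-07), which is 1.29-fold, and −0.05 ± 0.04 with pravastatin (adjusted p = 0.386). The drugs differed by 0.42 ± 0.06 (adjusted p = 1.94e-05), with SQ1 higher in 8 of 8 same-numbered pairs of arrays. A second, dimmer Mdm2 probe gave 0.48 with SQ1 (adjusted p = 1.07e-07) and −0.06 with pravastatin (adjusted p = 0.340), so both probes put SQ1 on the same side of pravastatin. Values of second probes are from the same model with every probe that passed the filter on dim probes kept. Their p-values are adjusted over those probes.

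Among the arrest and stress genes, Cdkn1a moved against the rest. Cdkn1a encodes p21, the inhibitor of cyclin-dependent kinases that is the classical p53 target for arrest. Its SQ1 arrays lay between −0.37 and −0.23 with a median of −0.29, the narrowest range of the 9 genes with SQ1. Its pravastatin arrays ran from −0.15 through −0.07 to 0.01, and no pravastatin array was as low as any SQ1 array. The fold change was −0.29 ± 0.02 with SQ1 (adjusted p = 6.6e-10), 0.818 of the untreated level, and −0.06 ± 0.02 with pravastatin (adjusted p = 0.0238). The difference was −0.23 ± 0.03 (adjusted p = 4.82e-06), and it was −0.15 and not called under median centring of the arrays in place of loess (adjusted p = 0.0543). A dimmer probe for the same transcript did not show this fall: it gave −0.06 ± 0.04 with SQ1 (adjusted p = 0.223), with 4 arrays above and 4 below 0, and a difference between the drugs of 0.02 ± 0.06 (adjusted p = 0.854). Median centring also moved the value of the brighter probe to −0.14 with SQ1 (adjusted p = 0.00573) and to 0.01 with pravastatin. The fall of Cdkn1a thus stands on 1 of its 2 probes, and its size depends on the normalisation.

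Ccng1, cyclin G1, which takes part in feedback on Mdm2, rose with SQ1. Its SQ1 arrays ran from 0.21 through 0.53 to 0.71 and its pravastatin arrays from −0.07 through 0.05 to 0.26, so that the ranges touched only at their ends. The change was 0.52 ± 0.05 with SQ1 (adjusted p = 6.02e-08), or 1.43-fold, and 0.08 ± 0.05 with pravastatin (adjusted p = 0.255). With the replicate number as a fixed block the pravastatin value was called (adjusted p = 0.0331). The difference between the drugs was 0.44 ± 0.07 (adjusted p = 8.52e-05), with SQ1 higher in 8 of 8 pairs. Its 1 spot was dim in both dyes on 2 pravastatin arrays. Treated and untreated signals were 3504.5 and 2341 on replicate 5 and 8455 and 4482 on replicate 6. The SQ1 arrays of these numbers gave 16466 and 7972, and 22708.5 and 9280.5. The cause was not tested. Leaving out 1 array gave differences of 0.41 to 0.49.

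Gadd45a, a stress protein that acts in arrest and DNA repair, was the member with the highest value under pravastatin. Its SQ1 arrays ran from 0.36 through 0.45 to 0.75, and its pravastatin arrays from 0.01 through 0.29 to 0.48, all above 0 with either drug and overlapping between them. It rose by 0.49 ± 0.05 with SQ1 (adjusted p = 1.26e-07) and by 0.27 ± 0.05 with pravastatin (adjusted p = 0.000313). The difference of 0.21 ± 0.07 (adjusted p = 0.0244) had the highest adjusted p of the differences called. It lost its call without SQ1 replicate 3 (0.18), SQ1 replicate 7 (0.20), pravastatin replicate 1 (0.19) or pravastatin replicate 6 (0.18), at adjusted p-values of 0.0519 to 0.0547, and it was 0.04 when all arrays were scaled to the same spread (adjusted p = 0.739).

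Btg2, an antiproliferative protein of the BTG/Tob family, was called in opposite directions. Its SQ1 arrays ran from 0.08 through 0.35 to 0.43, and its pravastatin arrays from −0.29 through −0.09 to 0.05, without overlap. It rose by 0.31 ± 0.03 with SQ1 (adjusted p = 3.98e-07), and it fell with pravastatin, at −0.09 ± 0.03 (adjusted p = 0.0433). The pravastatin call sat at the threshold and was lost on leaving out any of SQ1 replicates 2, 3 or 4 or pravastatin replicates 3, 4, 5 or 8, with values from −0.09 to −0.07. The difference of 0.40 ± 0.05 (adjusted p = 3.84e-06) was higher with SQ1 in 8 of 8 pairs.

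The 4 apoptosis members were called as risen with SQ1, and the call of Fas was lost under several other settings. Bax, which permeabilises the outer mitochondrial membrane, had SQ1 arrays from 0.31 through 0.57 to 0.74 and pravastatin arrays from −0.11 through 0.20 to 0.32. Only the ends of these ranges met, and 6 of 8 pravastatin arrays were above 0. Bax changed most of the 9 genes with SQ1, at 0.55 ± 0.05 (adjusted p = 7.54e-09), or 1.47-fold. With pravastatin it rose by 0.16 ± 0.05 (adjusted p = 0.00906), and the difference was 0.39 ± 0.07 (adjusted p = 0.000122).

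Bbc3, or Puma, a BH3-only protein that frees Bax and its relatives to act, was above 0 on every array of both drugs. The SQ1 arrays ran from 0.20 through 0.44 to 0.54, and the pravastatin arrays from 0.03 through 0.18 to 0.24. It rose by 0.41 ± 0.04 with SQ1 (adjusted p = 1e-08) and by 0.16 ± 0.04 with pravastatin (adjusted p = 0.00184). The difference of 0.26 ± 0.05 (adjusted p = 0.000485) was 0.08 when arrays were scaled to the same spread (adjusted p = 0.575).

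Phlda3, a pleckstrin homology protein that restrains Akt, separated the drugs most. Its SQ1 arrays ran from 0.16 through 0.53 to 0.75 and its pravastatin arrays from −0.09 through −0.04 to 0.10, without overlap. It rose by 0.50 ± 0.04 with SQ1 (adjusted p = 1.03e-08), while the pravastatin value was −0.02 ± 0.04 (adjusted p = 0.721, 95% interval −0.11 to 0.07). The difference was 0.52 ± 0.06 (adjusted p = 1.9e-06).

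Fas, the death receptor, was the member with the smallest rise with SQ1. Its SQ1 arrays ran from −0.27 through 0.28 to 0.34, with 7 of 8 above 0 and replicate 8 alone below, and its pravastatin arrays from −0.20 through 0.06 to 0.17. The SQ1 value of 0.17 ± 0.06 was called (adjusted p = 0.0131) and the pravastatin value of 0.01 ± 0.06 was not (adjusted p = 0.874). The SQ1 call was lost with arrays scaled to the same spread (0.14, adjusted p = 0.0813), with the slide as a random block (adjusted p = 0.0588), on the arrays with treated RNA in A647 alone (0.09, adjusted p = 0.445) and within the second scan day (0.08, adjusted p = 0.287). The difference of 0.16 ± 0.08 was not called (adjusted p = 0.138, 95% interval −0.01 to 0.33). With the replicate number as a block it was called (adjusted p = 0.0464 random, 0.0394 fixed), as it was without SQ1 replicate 8, at 0.22. The dimmer Fas probe gave the other order, 0.01 ± 0.04 with SQ1 (adjusted p = 0.766) and 0.15 ± 0.04 with pravastatin (adjusted p = 0.00760). Its difference between the drugs, −0.13 ± 0.06, was not called (adjusted p = 0.0811).

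**Figure D2:**
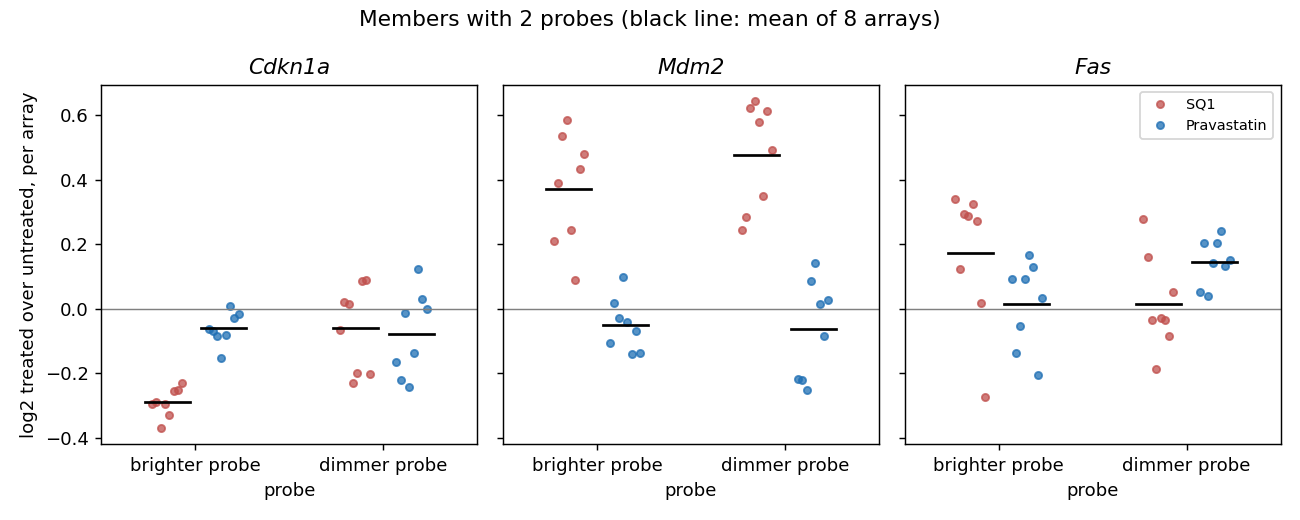
Log2 of treated over untreated signal per array for the brighter and the dimmer probe of Cdkn1a, Mdm2 and Fas, with SQ1 in red, pravastatin in blue and black lines at the mean of 8 arrays. The Mdm2 probes place SQ1 above pravastatin, whereas the Cdkn1a fall with SQ1 (−0.29) is seen with the brighter probe and the dimmer gives −0.06.

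Arrest and apoptosis members had similar values within each drug. The median change with SQ1 was 0.40 over the 4 measured arrest members, of which 3 rose and 1 fell, and 0.46 over the 4 apoptosis members, all of which were called as risen. With pravastatin the medians were 0.01 (1 rose, 2 fell) and 0.08 (2 rose, 0 fell). Array by array, the median of the apoptosis members was above that of the arrest members on 5 of 8 SQ1 arrays, by −0.09 to 0.26 with a median of 0.04, and on 5 of 8 pravastatin arrays, by −0.18 to 0.23 with a median of 0.03. These medians carry no dye term. With SQ1 the apoptosis median was higher on every array with treated RNA in A647, but in A555 on replicate 1 alone. With pravastatin it was higher on replicates 5, 6 and 7 in A647 and on replicates 1 and 4 in A555. Between the drugs, the arrest median ran from 0.23 to 0.53 on SQ1 arrays and from −0.05 to 0.11 on pravastatin arrays, and the apoptosis median from 0.30 to 0.55 and from −0.08 to 0.18. With 4 members per role, no test of the roles was made.

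**Figure D3:**
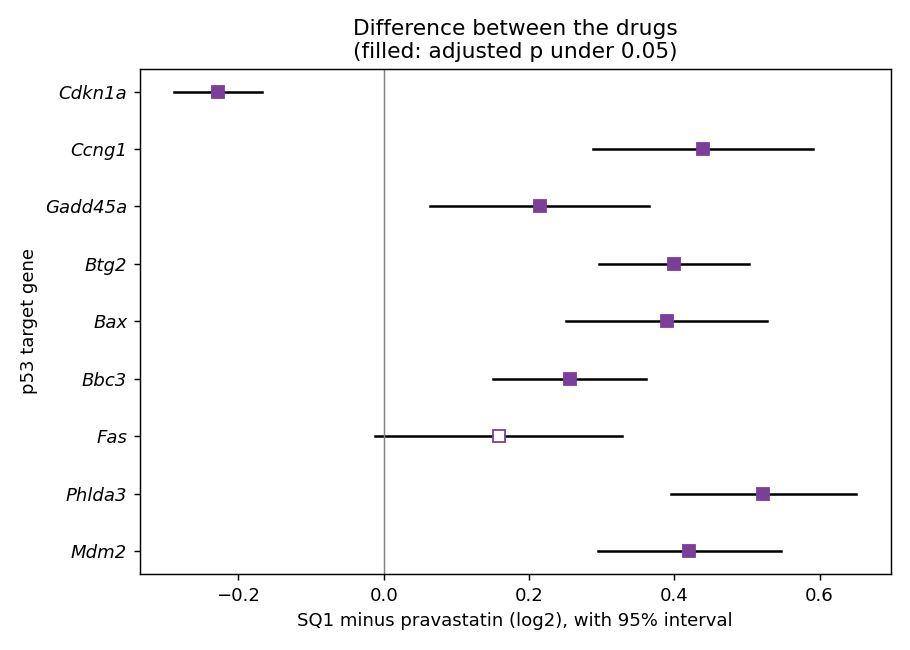
Fitted difference, SQ1 minus pravastatin (log2, horizontal axis), for each of the 9 genes with its 95% interval; filled squares passed an adjusted p of 0.05. Cdkn1a is the gene below 0 (−0.23), Phlda3 the highest (0.52), and the interval of Fas includes 0.

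Direct comparison of the drugs rests on unequal doses. SQ1 was higher in 8 of 8 same-numbered pairs for 7 of the 9 genes and lower in 8 of 8 for Cdkn1a. The share of all genes with 8 of 8 pairs on the same side was not counted, so nothing particular to the set is read from this. The arrays of the drugs did not overlap for 3 genes (Cdkn1a, Btg2 and Phlda3), against 11.1% of all genes tested. Each slide held arrays of 1 drug, so drug and slide cannot be told apart in this comparison. With the slide as a random block, 6 of the 7 genes higher with SQ1 stayed called and Gadd45a did not (adjusted p = 0.0553).

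The arrays were scanned on 2 days, each with 4 arrays of each drug, and several members were larger on the second. Within each drug, the arrays of each day were on a slide of their own, so scan day and slide cannot be told apart there. For Ccng1, SQ1 gave a mean of 0.37 on the first day and 0.66 on the second, without overlap between the days. The same held with SQ1 for Gadd45a (0.40 and 0.58), Bax (0.43 and 0.67) and Mdm2 (0.23 and 0.51), and with pravastatin for Gadd45a (0.12 and 0.42) and Bax (0.06 and 0.27). The share of all genes without overlap between the days was not counted, so this is not read as particular to the members. Cdkn1a gave −0.29 on both days with SQ1. Bbc3 (0.48 and 0.34) and Fas (0.26 and 0.08) ran the other way with SQ1, with overlap between the days. Within the first day the pravastatin value of Bax was not called (adjusted p = 0.252), nor within the second the SQ1 value of Fas and the pravastatin value of Bbc3 (0.10, adjusted p = 0.0639).

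The lists of related genes that follow are described by their counts, beside 32.6% of all genes risen and 31.2% fallen with SQ1, and 19.3% risen and 19.6% fallen with pravastatin. Where a list has genes called in both directions, so had the whole array, and nothing particular to the list is read from it. Among the regulators of p53, 3 of 14 measured genes rose and 6 fell with SQ1, and 3 rose and 3 fell with pravastatin. Mdm4, the partner of Mdm2 that also restrains p53, rose by 0.43 ± 0.03 with SQ1 (adjusted p = 7.33e-10) and by 0.09 ± 0.03 with pravastatin (adjusted p = 0.0320). Chek1, a checkpoint kinase, rose by 0.22 with SQ1 and by 0.10 with pravastatin. Ppm1d, the p53-induced phosphatase Wip1, fell with SQ1 (−0.25) and was at 0.06 with pravastatin, not called. Crebbp, a coactivator, fell with SQ1 (−0.23).

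Of 14 further p53 targets in arrest and growth, 7 rose and 5 fell with SQ1, with a median of 0.12, and 4 rose and 1 fell with pravastatin, beside the shares of all genes given above. Gtse1 rose by 0.78 ± 0.05, Plk2 by 0.68 ± 0.08 and the stress cytokine Gdf15 by 0.65 ± 0.04 with SQ1, and Gtse1 and Gdf15 each rose by 0.18 with pravastatin. Pcna, the sliding clamp of replication, rose by 0.46 ± 0.02 with SQ1 and was at 0.03 with pravastatin. Rprm, or Reprimo, fell with both drugs, at −1.004 ± 0.08 with SQ1 and −0.68 ± 0.08 with pravastatin. Of 13 further apoptosis targets, 6 rose and 6 fell with SQ1, with a median of 0.00, and 2 rose and 7 fell with pravastatin. Dram1, which acts in autophagy, rose by 0.61 ± 0.05 with SQ1 and 0.49 ± 0.05 with pravastatin, and Apaf1, the core of the apoptosome, by 0.44 ± 0.06 and 0.34 ± 0.06. The exonuclease Aen rose by 0.52 ± 0.04 with SQ1 and was not called with pravastatin (adjusted p = 0.979). Bcl6, a transcriptional repressor, fell with both (−0.50 and −0.23), and Fdxr, ferredoxin reductase, fell more with pravastatin (−0.34) than with SQ1 (−0.11), a difference of 0.23 (adjusted p = 0.00459).

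Of 7 DNA repair targets, 3 rose and 3 fell with each drug: with SQ1, the repair methyltransferase Mgmt rose by 0.78 ± 0.03 and the ribonucleotide reductase subunit Rrm2b by 0.46 ± 0.03, while Xpc fell (−0.49 ± 0.04). Of 12 metabolic targets, 4 rose and 6 fell with SQ1, and 2 rose and 4 fell with pravastatin. Pank1, a pantothenate kinase of coenzyme A synthesis, rose by 1.08 ± 0.04 with SQ1 and by 0.69 ± 0.04 with pravastatin. Ephx1, a microsomal epoxide hydrolase, was called in opposite directions (0.73 and −0.45), and Lpin1 fell with SQ1 (−0.70) without a call for pravastatin (0.12). Gls2, the liver glutaminase, fell with both drugs (−0.49 and −0.57).

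**Figure D4:**
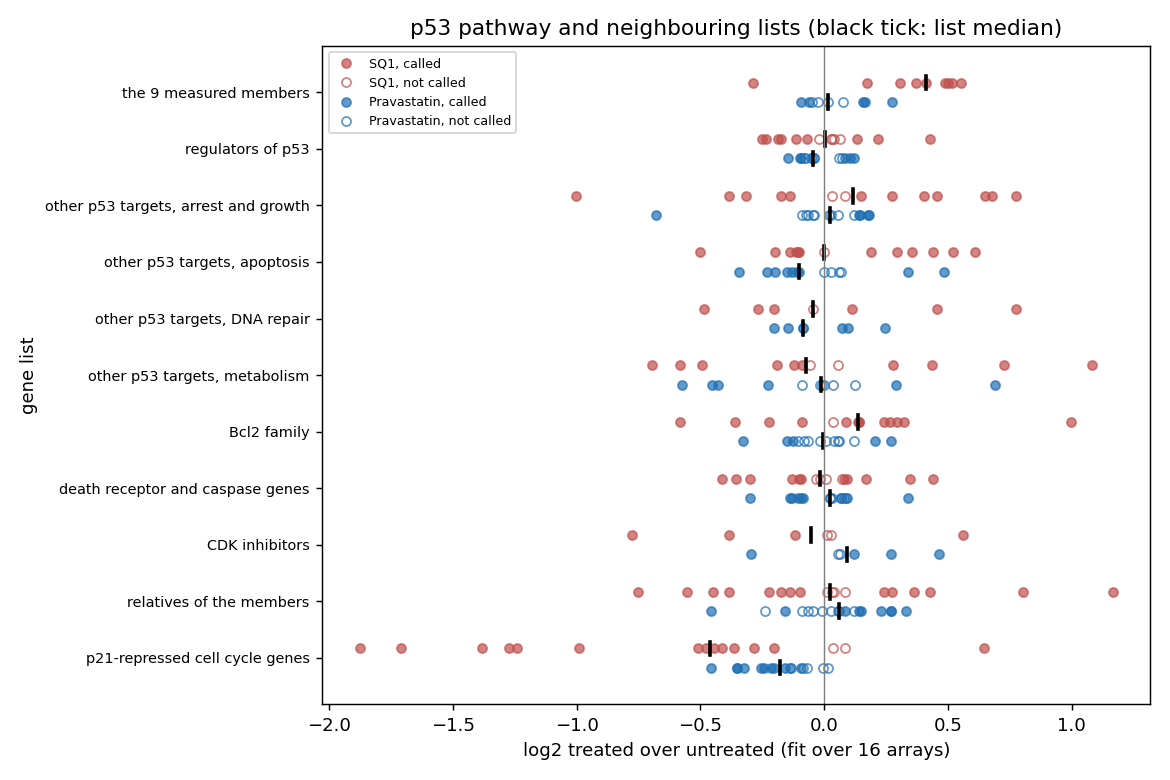
Fitted log2 change of treated over untreated for the 9 members and for the genes of 10 related lists (rows), SQ1 in red and pravastatin in blue, filled where called, with a black tick at each median. The members' median with SQ1 is 0.41, the other target lists have medians from −0.07 to 0.12, and the cell cycle list lies at −0.46.

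Of 18 near relatives of the members, 6 rose and 8 fell with SQ1, beside 32.6% and 31.2% of all genes, and 7 rose and 2 fell with pravastatin, beside 19.3% and 19.6%. Gadd45b rose by 1.17 ± 0.07 with SQ1 (adjusted p = 6.02e-11) and by 0.23 ± 0.07 with pravastatin, while Gadd45g fell with both (−0.45 and −0.46). Within the BTG/Tob family Btg3 rose by 0.81 ± 0.05 with SQ1, Btg1 (−0.55), Tob1 (−0.17) and Tob2 (−0.75) fell, and Btg4 (0.04) was not called. Of the sestrins, Sesn2 rose by 0.28 ± 0.04 with SQ1 and was not called with pravastatin (−0.09), while Sesn3 rose with pravastatin (0.14) and was at 0.08 with SQ1 (adjusted p = 0.0569). Phlda2 rose with both drugs (0.36 and 0.33) and Phlda1 (0.03 and −0.01) with neither. Bak1, the closest functional relative of Bax, rose with both (0.24 and 0.27), and Bok fell with SQ1 (−0.22). Ccng2 (−0.14), Gadd45gip1 (−0.10) and Tob1 fell by amounts that were not called under median centring.

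Cdkn1b, or p27, fell with SQ1 (−0.38 ± 0.06, adjusted p = 2.68e-05) beside Cdkn1a, while Cdkn1c, or p57, rose with pravastatin (0.27) and was at 0.01 with SQ1, a difference of −0.26 (adjusted p = 0.00202). Of 6 CDK inhibitors other than Cdkn1a, 1 rose and 3 fell with SQ1, and 3 rose and 1 fell with pravastatin. Cdkn2b rose with both (0.56 and 0.46) and Cdkn2c fell with both (−0.78 and −0.30). Of 16 cell cycle genes that p21 is known to hold down, 13 fell and 1 rose with SQ1, with a median of −0.46, and 11 fell and 0 rose with pravastatin, with a median of −0.18. Rrm2 (−1.88 ± 0.04), Cdk1 (−1.71 ± 0.04), Ccna2 (−1.38 ± 0.05) and Ccnb1 (−1.28 ± 0.05) fell most with SQ1, beside Cdkn1a values of −0.29 and −0.06 from its 2 probes. Mybl2 rose with SQ1 (0.64) and fell with pravastatin (−0.16).

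In the cell death machinery next to Bax, Bbc3 and Fas, 9 of 14 Bcl2 family genes rose and 4 fell with SQ1, with a median of 0.14, and 2 rose and 3 fell with pravastatin. Bnip3, a mitophagy receptor that responds to low oxygen, rose by 1.00 ± 0.04 with SQ1 and was at 0.06 with pravastatin. Bid and the BH3-only gene Bcl2l11 rose with SQ1 (0.29 and 0.32), whereas Bmf (−0.58) and Hrk (−0.36) fell. Of 15 death receptor and caspase genes, 5 rose and 6 fell with SQ1, and 3 rose and 6 fell with pravastatin. Cflar, which blocks signalling from Fas, rose by 0.35 ± 0.06 with SQ1, and the survival proteins Birc2 (−0.30) and Xiap (−0.35) fell.

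Cell type markers moved in the same samples. All 8 hepatocyte markers were well above background in all 32 channel measurements, and all 8 fell with SQ1 (median −0.60), as 6 did with pravastatin while 2 rose. When arrays were scaled to the same spread, 3 fell with each drug, and 5 of the macrophage markers fell with SQ1. The summed signal of the hepatocyte markers, before normalisation, followed the dye. With treated RNA in A555 it was 464301 to 651930 in SQ1-treated against 2298934 to 2552488 in untreated channels, and with treated RNA in A647 it was 1702475 to 2152493 against 710393 to 905035. With pravastatin it was 627821 to 715928 against 2244091 to 2464638 in the first orientation and 1688844 to 2273494 against 583239 to 697293 in the second. After normalisation their mean log2 ratio per array was below 0 in both orientations with SQ1 (−1.15 to −0.88 and −0.60 to −0.20), whereas with pravastatin it changed sign with the dye (−0.63 to −0.36 and 0.09 to 0.23). All 12 macrophage markers were also above background in every channel and fell with both drugs (medians −0.56 and −0.83). Their mean log2 ratio per array was −0.66 to −0.36 with SQ1 and −0.91 to −0.62 with pravastatin where the treated RNA was in A555, and −0.71 to −0.33 and −0.98 to −0.75 where it was in A647. Their summed signal was 35974 to 63110 in SQ1-treated against 90514 to 133955 in untreated channels in the first orientation and 60047 to 105361 against 53252 to 82044 in the second. With pravastatin it was 34028 to 42610 against 96050 to 117302 and 52113 to 70018 against 50707 to 75864. All 8 measured markers of stellate cells and fibroblasts fell with SQ1 and 3 with pravastatin, and 3 of 4 endothelial markers fell with SQ1 and 1 with pravastatin. Of 5 cholangiocyte markers, 1 rose and 2 fell with SQ1, and 2 rose and 1 fell with pravastatin. Of the lymphocyte markers, Cd3e and Cd79b were well above background in 0 channels, and neither of the 2 that were measured was called. In bulk RNA, fewer cells of a type and less RNA per cell cannot be told apart, and the part of these shifts in the values of the p53 targets was not tested.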

How the data were processed

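Each array held RNA of 1 treated and 1 untreated culture in the dyes A555 and A647. Spot values came from Agilent Feature Extraction, a tool listed in the submitters' processing notes; the file headers give 10.7.1.1 as its version. Per the file headers, the deposited median signals and backgrounds are intensity in arbitrary units, and the processed signals are intensity after the scanner software's corrections. Per the file headers, the deposited ratio column is the log10 of red over green. The deposited value table holds log2 ratios of treated over untreated. Every column matched the other drug's scanner file of equal replicate number (r 0.999 to 1.00) and less with the file its label names (r 0.450 to 0.562), so scanner files were used and the table served as an alternative.

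In R 4.3.3 with limma 3.58.1, median signals were corrected by normexp (offset 50), since mean signals, which the design named, are not among the columns, and then by loess with control spots at weight 0. Non-uniform spots were dropped and spots of a probe averaged. A probe was kept if 6 or more of its 32 channel measurements were well above background, and the brightest probe stood for a gene. RefSeq accessions named 17998 of 30367 probes through the GRCr8 table, and 11920 of the 20753 genes tested have a symbol. The model had a term per drug and a dye term. The script recovered known changes in simulated data with few changed genes and independent noise. Correlation between arrays and the normalisation were not covered by that simulation. Alternatives were other normalisations, filters, probes, batches, dyes, replicate blocks and left-out arrays.

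The members and gene lists were chosen with earlier results of these data known. Named genes were all members, Mdm4 and the members' relatives, and up to 4 genes with the largest change per list and comparison; some genes of the lists are not reported here and were left out of the lists' counts. Model residuals of arrays with equal replicate number had correlations of 0.142 to 0.628, all over 0.1, although replicates 2, 7 and 8 correlated more with another number. Pairing by number is thus uncertain. It was used for the counts of pairs and for the replicate blocks, and the main model left it out. The number of arrays limits the precision. The genome build of the files is older than GRCr8, and no probe coordinates are given.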

Additional observations from a re-analysis of the deposited data

Results flagged for a closer look

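Of 152 groups of 8 arrays checked for 1 array far from the rest, 9 passed the critical value of 0.526 for the gap to the nearest array over the range, and 0 of the 18 groups of the members did; at this level chance alone flags about 5% of groups. With pravastatin, replicate 1 stood apart for Aen (0.661), Bcl6 (0.585), Cdkn2b (0.638), Dram1 (0.612) and Hrk (0.578), replicate 2 for Pank1 (0.716), and replicate 5 for Bok (0.528) and Cdkn2a (0.531). With SQ1, replicate 1 stood apart for Cdkn2b (0.611).

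Btg2 was picked out because its calls with the 2 drugs point in opposite directions, and the tested difference, SQ1 minus pravastatin, was 0.40.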

How the results depend on the processing

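For the members, the SQ1 calls of Ccng1, Gadd45a, Btg2, Bax, Bbc3, Phlda3 and Mdm2 kept direction and call under every alternative run on values assigned by array (Cdkn1a lost its call with its dimmest probe, and Fas with that, scaling to one spread, scan day 2, slide blocks and A647 alone). The pravastatin calls of Btg2 and Cdkn1a were lost under many. The number of pravastatin members fallen was 1 with arrays scaled to one spread, no filter on dim probes, the mean of probes, within scan day 2, no dye term, treated RNA in A647 only, only the drug's arrays, or the dimmest probe (an alternative chosen after seeing the data), and 0 with median centring, within scan day 1, with the slide as a random block or with treated RNA in A555 only. Leaving out 1 array gave 0 to 2. The cause of these shifts was not tested.

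Median centring put the arrest median with SQ1 at 0.53 and left 0 members fallen in SQ1 minus pravastatin. It turned Cdkn1a with pravastatin to 0.011 and, with SQ1, Cmbl to 0.16, Cycs to 0.078 and Casp6 to 0.010. Scaling to one spread gave an apoptosis median of 0.35 with SQ1, and in SQ1 minus pravastatin 3778 genes called, an arrest median of 0.18, an apoptosis median of 0.17, Birc2 at 0.021, Hrk at 0.013 and Pank1 at −0.20. Within scan day 1, 4015 genes were called with pravastatin and 4839 in the difference. With treated RNA in A555 only, 4801 genes and 1 risen member were called with pravastatin, and 3964 genes in the difference, and Cycs was 0.018 with SQ1. With it in A647 only, 5153 genes were called in the difference, and Cmbl was 0.15 with SQ1. The dimmest probe left 0 members fallen with SQ1 and 0 in the difference, and gave with SQ1 Hrk 0.045, and in the difference Cdkn1a 0.017 and Hrk 0.021. Btg4 in the difference was −0.44 with Agilent's processed signals and −0.44 with the value table by matched array.

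The deposited value table, read by its column labels, exchanges the drugs, and was run for the members and not for the list genes. It gave 3 members risen and 2 fallen with SQ1 (arrest median 0.0044, apoptosis median 0.088, Btg2 −0.10, Mdm2 −0.057, Phlda3 −0.021). With pravastatin it gave 13647 genes called, 8 members risen and 1 fallen (arrest median 0.42, apoptosis median 0.50, Btg2 0.33, Mdm2 0.41, Phlda3 0.56). In SQ1 minus pravastatin it gave 1 risen and 7 fallen (arrest median −0.33, apoptosis median −0.35, Cdkn1a 0.18, Ccng1 −0.46, Gadd45a −0.23, Btg2 −0.43, Bax −0.41, Bbc3 −0.30, Phlda3 −0.58, Mdm2 −0.46). Read by matched array, the table kept every member's direction and call.

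With the replicate number as a block, 9883 genes (random, correlation 0.393) or 9869 (fixed) were called in SQ1 minus pravastatin, and no member call changed other than those given for Fas and Ccng1.

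Only 9 genes carry these results, 6 of them through a single probe, and 2 of the 3 genes with a second probe gave different calls from it. Drug, dose and slide are confounded in the direct comparison.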

Other observations

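Among the red blood cell genes, Hba-a1 rose by 2.96 ± 0.04 with SQ1 and by 2.92 ± 0.04 with pravastatin, the largest changes of any gene on the lists used here, while Hbb was not called with either drug (−0.02 and 0.02).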
